A study of Mus musculus with 12 samples.

Results

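To examine the machinery of DNA synthesis in MBNL-deficient melanoma cells, 41 genes of DNA replication and S phase were followed in RNA-seq of B16-F10 cells. The members were chosen by name for their known roles, and all 41 were present among the 23022 genes listed and passed the filter that left 11663 genes for testing. They comprised 8 genes of origin licensing (Mcm2 to Mcm7, Cdc6 and Cdt1), 6 of helicase activation (Mcm10, Cdc45 and Gins1 to Gins4), 6 DNA polymerase subunits, the sliding clamp Pcna with the 5 clamp loader genes Rfc1 to Rfc5, the 3 RPA genes, Lig1 and Fen1, 3 genes of nucleotide supply (Rrm1, Rrm2 and Tyms), 3 of S-phase entry (E2f1, Ccne1 and Ccne2), the maintenance methylation pair Uhrf1 and Dnmt1, the repair gene Brca1 and the histone mRNA factor Slbp.

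B16-F10 is a melanoma line of C57BL/6 mice. A Cas9-expressing clone of it, picked for its editing rate, received lentiviral paired guides against both Mbnl1 and Mbnl2 (Mbnl DKO) or control guides (NTC, which the labels call a no template control and the study a non-targeting control), and each was left untreated or given IFNγ at 1 ng/mL for 24 h. Each of the 4 groups had 3 libraries, 12 in all, from poly(A)-selected RNA without strand information. The DKO cells were a polyclonal pool with residual MBNL protein according to the study, all groups carried Cas9 and a guide vector, and nothing in the labels says whether replicates came from separate cultures, so that p-values measure the spread between these samples, which may be technical.

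As background, MCM proteins are loaded as rings at origins in G1 by Cdc6 and Cdt1, and in S phase Cdc45 and the GINS complex join them to form the active helicase. Polymerase α primes each strand, RFC loads the PCNA clamp, polymerases δ and ε extend the DNA, and RPA covers the single strands that are exposed. Cyclin E with its kinase CDK2 drives entry into S phase, and E2F transcription factors, held by the Rb family until then, switch on most genes of this machinery.

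The values are TPM, a unit that scales transcript abundance by transcript length and by library and does not keep the depth. Differences were fitted with limma on log2(TPM + 1), and a gene was called at a Benjamini-Hochberg adjusted p-value under 0.05 over all 11663 tested genes. Listed genes summed to between 844185 and 874612 TPM in NTC libraries and to between 805782 and 827191 TPM in DKO libraries, which moves the balance of higher and lower calls when libraries are scaled to the same total. RNA of both targeted genes remained in DKO cells but was lower, Mbnl1 by a log2 difference of -0.41 untreated and -0.47 with IFNγ, and Mbnl2 by -0.20 and -0.23 (limma, adjusted p between 8.12e-06 and 0.00937). All 7 melanocyte markers were detected in every group, with sums of 16600 to 18600 TPM in NTC and 11100 to 12400 TPM in DKO libraries. They were called lower in DKO cells for 7 of 7 genes untreated and 6 of 7 with IFNγ, where 19.4% and 23.9% of all tested genes were. With IFNγ, the differences of all 7 were below 0. The part of this shift in the results below was not tested. Of 10 markers of leukocytes, endothelium, epithelium and mesenchyme that were found, 9 were under 1 TPM in each group, and their sum stayed between 2.91 and 5.24 TPM.

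To describe their promoters, the members were searched for E2F-type words, namely TTTGGCGC, TTTCGCGC, TTTCCCGC and TTTGCCGC on both strands, with overlapping matches counted separately. The window ran from 250 bases before to 50 bases after the gene start, in RefSeq sequence of build GRCm38.p6, and 34 of the 41 members had a window. Where a gene had more than 1 window, the window with the most matches counted. At least 1 match was found in 14 of these 34 members (41.2%), against 4.91% of 8481 tested genes and 2.6% of 27025 genes with a window. At least 2 matches were found in 6 members (17.6%), against 0.236% of the tested genes. A CCAAT word, counted for comparison, was present in at least 1 window of 64.7% of these members and 44.1% of these tested genes. A match is a description of letters, not evidence of binding, and no match says only that these words are not in the window.

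The licensing genes Mcm6 and Mcm5 are shown first because their windows hold a pair of overlapping matches on opposite strands, and Mcm6 holds 3 matches, the highest number among members. The 250 bases before the start are given 5′ to 3′ along the gene, with motif letters in capitals.
Mcm6 (chr1:128359706-128359955, minus strand): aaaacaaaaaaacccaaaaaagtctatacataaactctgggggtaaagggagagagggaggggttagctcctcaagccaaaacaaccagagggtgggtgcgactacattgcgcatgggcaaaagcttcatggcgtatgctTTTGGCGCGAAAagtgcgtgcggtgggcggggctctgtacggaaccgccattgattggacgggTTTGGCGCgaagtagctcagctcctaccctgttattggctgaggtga
Mcm5 (chr8:75109259-75109508, plus strand): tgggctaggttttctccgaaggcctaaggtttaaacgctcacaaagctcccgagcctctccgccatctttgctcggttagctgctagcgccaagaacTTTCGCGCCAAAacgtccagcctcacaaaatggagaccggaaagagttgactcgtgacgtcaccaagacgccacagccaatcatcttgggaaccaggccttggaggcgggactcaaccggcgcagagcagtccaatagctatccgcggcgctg

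The other members shown either held at least 2 matches or were higher in untreated DKO cells and held at least 1. Stretches of 30 bases around the match nearest the 5′ end are given, again with motif letters in capitals.
Mcm3 (chr1:20820265-20820294, minus strand): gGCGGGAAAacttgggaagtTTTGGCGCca
Mcm7 (chr5:138172030-138172059, minus strand): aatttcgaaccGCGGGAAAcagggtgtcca
Cdc6 (chr11:98908002-98908031, plus strand): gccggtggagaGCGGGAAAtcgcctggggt
Pola1 (chrX:93632275-93632304, minus strand): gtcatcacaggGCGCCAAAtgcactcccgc
Rfc3 (chr5:151651195-151651224, minus strand): gcacgcTTTCGCGCtcGCGGGAAAactcta
Uhrf1 (chr17:56304117-56304146, plus strand): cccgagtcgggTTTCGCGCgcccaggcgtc
Dnmt1 (chr9:20952824-20952853, minus strand): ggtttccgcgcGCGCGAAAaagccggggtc

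For contrast, the 2 members with the largest difference between untreated DKO and NTC cells, Ccne1 and Brca1, had no match in their windows. Their 250 bases before the start are therefore shown without capitals.
Ccne1 (chr7:38107491-38107740, minus strand): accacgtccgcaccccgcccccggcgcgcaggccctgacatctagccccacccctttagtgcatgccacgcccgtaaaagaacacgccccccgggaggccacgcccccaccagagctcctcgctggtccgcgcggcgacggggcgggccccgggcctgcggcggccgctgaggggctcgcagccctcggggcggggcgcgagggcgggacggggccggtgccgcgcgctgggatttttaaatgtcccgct
Brca1 (chr11:101551956-101552205, minus strand): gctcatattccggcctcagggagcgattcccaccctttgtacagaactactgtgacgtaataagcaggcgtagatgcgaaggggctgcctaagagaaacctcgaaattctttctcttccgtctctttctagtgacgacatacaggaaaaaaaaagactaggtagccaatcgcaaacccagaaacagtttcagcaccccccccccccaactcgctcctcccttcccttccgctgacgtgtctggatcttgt

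Replication genes were then compared between untreated DKO and NTC cells. Of the 41 members, 17 were higher and 4 lower in DKO cells, where 17.0% of all tested genes were called higher and 19.4% lower. The median log2 difference was 0.0652 over the members and -0.0055 over all tested genes. Libraries of the genotypes did not overlap for 20 members in the higher and 6 in the lower direction. Over all tested genes, this held for 24.8% and 26.8%. With libraries scaled to the same total, 20 members were higher and 2 lower, where 22.7% of all tested genes were called higher and 14.8% lower. The share of higher genes among all calls moved from 46.7% to 60.6%. Most differences were small, and all increases but those of Ccne1 and Ccne2 were at 0.45 or below on the log2 scale. In bulk RNA, more cells in S phase and more RNA per cell cannot be told apart.

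With IFNγ, 16 members were higher and 7 lower in DKO than in NTC cells, where 19.5% of all tested genes were called higher and 23.9% lower. Here the median was 0.1014 over the members and -0.0127 over all tested genes. Libraries did not overlap for 16 members in the higher and 7 in the lower direction, against 22.7% and 27.2% of all tested genes. Scaling to the same total gave 25 higher and 2 lower members and moved the share of higher genes among all calls from 44.9% to 65.2%. These libraries are different from those of the untreated comparison, although both used the same estimate of spread. Of the members, 14 were called in both comparisons and in the same direction, which is 66.7% of the untreated and 60.9% of the IFNγ calls. Over all tested genes, 3220 were called in both, 75.8% and 63.7% of the respective calls. Higher in both were Mcm4, Mcm7, Cdc6, Cdc45, Pola2, Pold2, Rpa2, Rrm2, Ccne1, Ccne2, Uhrf1 and Dnmt1, and lower in both were Brca1 and Rfc4.

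**Figure D1:**
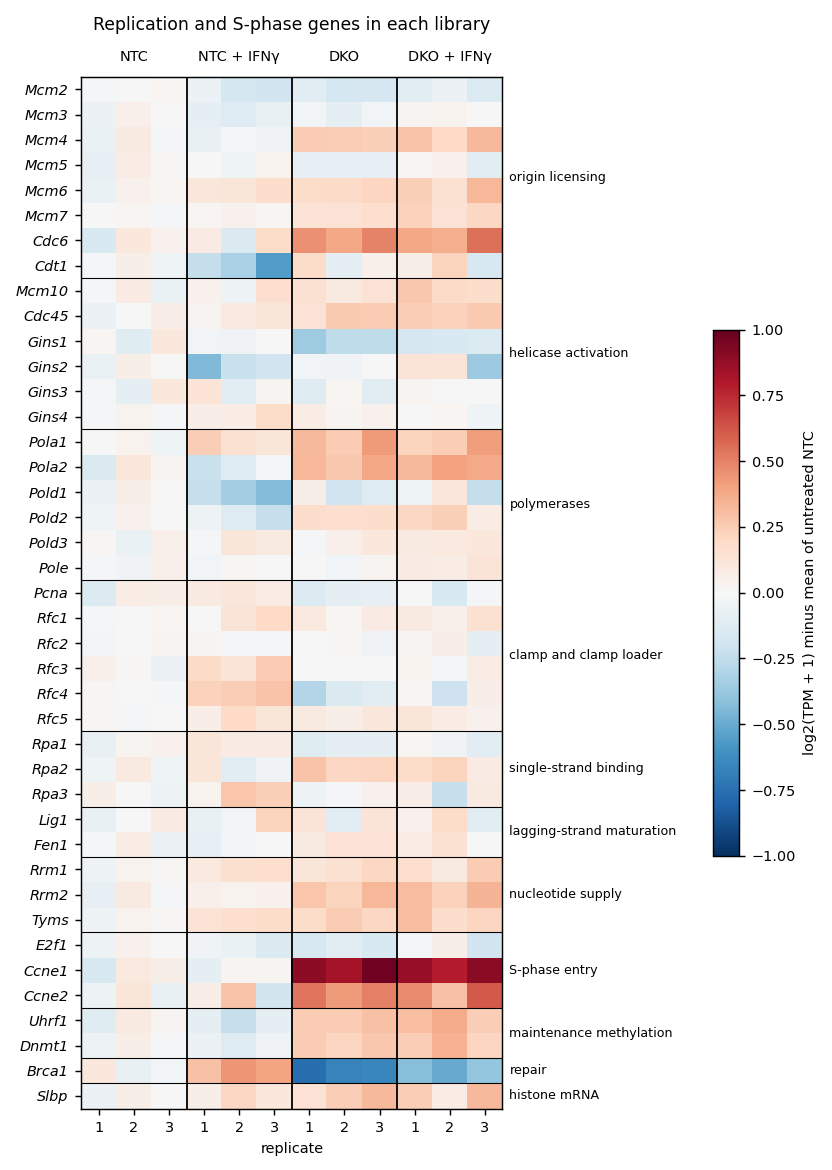
Level of the 41 members in each of the 12 libraries, as log2(TPM + 1) minus the mean of the 3 untreated NTC libraries, with columns for replicates, rows for genes and roles named at the right. Red is higher and blue lower than untreated NTC; Ccne1 is the darkest red row in both DKO groups, and Brca1 is blue in DKO and red in IFNγ-treated NTC libraries.

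Genes of S-phase entry held the largest increase. Ccne1, which encodes cyclin E1 and lies at chr7:38097984-38107534 on the minus strand (GRCm38, GENCODE M21), stood at 24.1, 28.8 and 28.1 TPM in untreated NTC cells, against 51, 48.8 and 53.7 TPM in untreated DKO cells. IFNγ-treated NTC cells held 25.3, 27.4 and 27.4 TPM and treated DKO cells 50, 47.2 and 51.2 TPM. Every DKO library was above every NTC library, and within a genotype the treated and untreated libraries overlapped. The log2 difference was 0.90 untreated (SE 0.0674, limma adjusted p = 5.05e-07), an increase of 86.7% in TPM + 1, and 0.87 with IFNγ (adjusted p = 6.57e-07).

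Its paralog Ccne2, encoding cyclin E2, was expressed at 12.4, 14.1 and 12.2 TPM in untreated NTC and 19.1, 17.6 and 18.7 TPM in untreated DKO libraries. In IFNγ-treated cells, the values were 13.5, 15.9 and 11.2 TPM for NTC and 18.3, 16 and 20.2 TPM for DKO. DKO libraries were again above NTC libraries, by a narrow gap under IFNγ, with log2 differences of 0.49 (adjusted p = 0.00326) and 0.41 (adjusted p = 0.00842). The gene overlaps Ints8 on the opposite strand, and reads of the pair are not separated in these libraries. The ratio of Ccne1 to Ccne2 ranged from 1.72 to 2.45 in NTC and from 2.54 to 2.95 in DKO libraries.

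E2f1, the activator E2F among the members, did not follow the cyclins. It stood at 34.9, 37.4 and 36.3 TPM in untreated NTC and 32.3, 33.5 and 32.4 TPM in untreated DKO libraries. The untreated DKO libraries were the lower ones without overlap, and the difference of -0.14 missed the threshold (adjusted p = 0.096) but passed it under 4 alternatives. These were the GC and length trend removed (-0.17, adjusted p = 0.00866, and 0.0114 with the replicate block), only the libraries of the comparison (adjusted p = 0.0365) and IFNγ-treated DKO replicate 3 left out (adjusted p = 0.0355). In treated cells E2f1 differed by 0.03 (adjusted p = 0.723), and removal of the GC and length trend of each library turned this value to -0.12 (adjusted p = 0.0447).

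**Figure D2:**
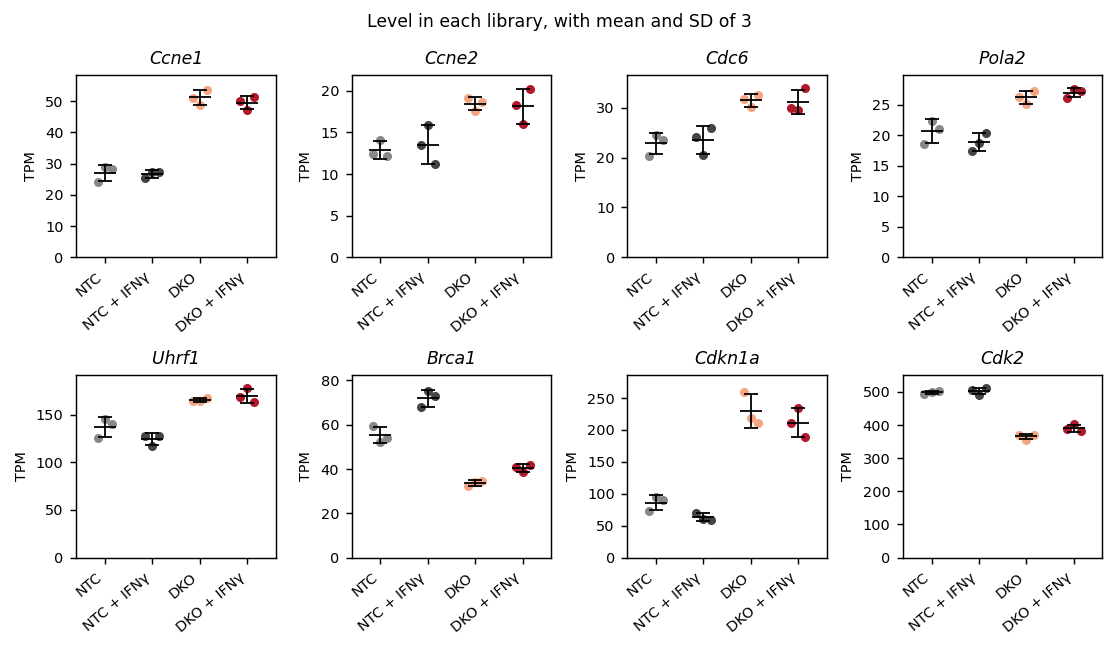
TPM of 6 members and of the cell cycle regulators Cdkn1a and Cdk2 in each library (points), with the mean and SD of 3 libraries (bars), in the 4 groups. DKO libraries are above NTC libraries for Ccne1, Ccne2, Cdc6, Pola2, Uhrf1 and Cdkn1a, and below them for Brca1 and Cdk2.

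Among the origin licensing genes, 4 of 8 were higher and 1 lower in DKO cells without IFNγ. These are 50% and 12.5%, against 17.0% and 19.4% of all tested genes. With IFNγ, 5 of 8 were higher (62.5%, against 19.5%) and 0 lower (against 23.9%). Cdc6, the ATPase that loads the MCM ring together with Cdt1, moved most in untreated cells. It was measured at 20.4, 24.6 and 23.5 TPM in untreated NTC against 31.7, 30.1 and 32.6 TPM in untreated DKO libraries. Under IFNγ, NTC libraries held 24.1, 20.5 and 26 TPM and DKO libraries 30, 29.6 and 33.9 TPM. The genotypes did not overlap in either state, and the log2 differences were 0.45 (SE 0.0875, adjusted p = 0.00134) and 0.39 (adjusted p = 0.00275).

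Its partner Cdt1 behaved otherwise. It stood at 61.9, 65.5 and 61.1 TPM in untreated NTC against 71.5, 58.8 and 65.1 TPM in untreated DKO libraries, which overlapped. With IFNγ, NTC libraries fell to 53.2, 50 and 42.4 TPM, whereas DKO libraries stood at 65.4, 73.6 and 56.1 TPM. Genotypes were thus apart only among the treated libraries, with a log2 difference of 0.05 untreated (adjusted p = 0.744) and 0.41 with IFNγ (adjusted p = 0.0047).

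The 6 MCM subunits, which form 1 ring, did not share 1 direction. Mcm4 stood at 71, 79 and 73.3 TPM in untreated NTC and 89, 88.4 and 88 TPM in untreated DKO libraries, and at 70.6, 73.7 and 72.5 TPM against 90.8, 85.4 and 93.2 TPM with IFNγ. All DKO libraries were above all NTC libraries, with log2 differences of 0.25 (adjusted p = 0.00118) and 0.31 (adjusted p = 0.000189). Mcm7 was higher by 0.14 (adjusted p = 0.00588) and 0.17 (adjusted p = 0.00202), with 125 to 130 TPM in NTC and 139 to 148 TPM in DKO libraries. It overlaps Cops6 and Ap4m1 on the opposite strand.

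Mcm6 rose in untreated DKO cells from 159, 172 and 169 TPM to 189, 190 and 193 TPM (log2 difference 0.19, adjusted p = 0.00608). With IFNγ it was at 180, 181 and 188 TPM in NTC against 197, 185 and 210 TPM in DKO libraries, which overlapped (0.11, adjusted p = 0.0889), and without IFNγ-treated DKO replicate 2 this Mcm6 value was 0.15 (adjusted p = 0.0172). It also passed the threshold with the GC and length trend removed (0.14, adjusted p = 0.0141) and with libraries at the same total (0.19, adjusted p = 0.0044). Mcm2 went the other way in untreated cells, from 214, 216 and 219 TPM in NTC to 200, 191 and 192 TPM in DKO libraries. That decrease of Mcm2 amounted to -0.15 (adjusted p = 0.0122), ended when libraries were scaled to the same total (-0.10, adjusted p = 0.0958), and stood at 0.04 with IFNγ (adjusted p = 0.424). With IFNγ, Mcm2 was at 208, 191 and 189 TPM in NTC against 201, 208 and 197 TPM in DKO libraries, which overlapped, and the treated Mcm2 difference was 0.13 with libraries at the same total (adjusted p = 0.0342).

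Mcm3 differed by -0.05 in untreated cells (adjusted p = 0.352) and was higher in DKO cells with IFNγ, at 154, 155 and 151 TPM against 141, 138 and 144 TPM (0.12, adjusted p = 0.0267). This call on Mcm3 ended when IFNγ-treated NTC replicate 1 or 2 or IFNγ-treated DKO replicate 1 or 2 was left out (adjusted p between 0.0562 and 0.0913). It also ended with the GC and length trend removed (0.07, adjusted p = 0.101, and 0.128 with the replicate block). With only the libraries of the comparison, its adjusted p was 0.0623. Mcm5 stood between 136 and 154 TPM in all libraries, with differences of -0.09 (adjusted p = 0.197) and -0.01 (adjusted p = 0.852).

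**Figure D3:**
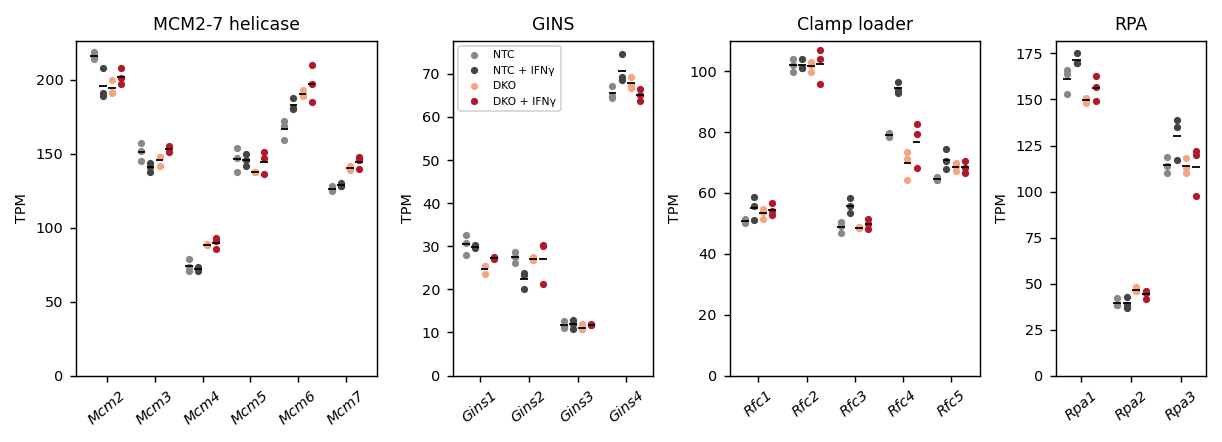
TPM of the subunits of the MCM helicase, GINS, the clamp loader and RPA, with a point per library, a bar for the mean of 3 libraries and colors for the 4 groups. Mcm4 is the lowest MCM subunit in each group and is higher in DKO libraries, whereas Mcm2 is lower in untreated DKO than in untreated NTC libraries; Rpa2 is the lowest RPA subunit throughout.

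TPM are per length, so that subunits can be set side by side within a group. Mcm4 was the lowest and Mcm2 the highest MCM subunit in each group, and the ratio of their means was 2.9 in untreated NTC, 2.72 in IFNγ-treated NTC, 2.2 in untreated DKO and 2.25 in IFNγ-treated DKO cells. For GINS, Gins4 exceeded Gins3 by ratios of 5.52 to 6.09 over the groups. In the clamp loader, Rfc2 exceeded the lowest subunit by 1.85 to 2.09. Rpa1 exceeded Rpa2 by 4.09 and 4.38 in NTC and by 3.21 and 3.54 in DKO cells. These ratios compare group means and carry no test.

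Of the helicase activation genes, 1 of 6 was higher and 1 of 6 lower in untreated DKO cells (16.7% each, near the 17.0% and 19.4% of all tested genes), and 2 of 6 were higher (33.3%, against 19.5%) and 1 of 6 lower (16.7%, against 23.9%) with IFNγ. Cdc45, which joins the MCM ring in the active helicase, stood at 40.7, 42.3 and 44.5 TPM in untreated NTC and 47, 51 and 50.8 TPM in untreated DKO libraries. With IFNγ, it was at 43.2, 45.6 and 46.4 TPM against 50.6, 50 and 51.2 TPM. DKO libraries were above NTC libraries in both states, by 0.22 (adjusted p = 0.00391) and 0.16 (adjusted p = 0.017). The second Cdc45 call ended without IFNγ-treated NTC replicate 1 (0.13, adjusted p = 0.0672), and the gene overlaps Ufd1l on the opposite strand.

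Gins1, a GINS subunit, was lower in untreated DKO libraries, at 23.5, 25.4 and 25.4 TPM against 30.8, 27.9 and 32.7 TPM in NTC. IFNγ-treated libraries held 29.8, 29.6 and 30.3 TPM in NTC against 27, 27.3 and 27.6 TPM in DKO. DKO libraries lay below all NTC libraries of their treatment, and the difference was -0.29 untreated (adjusted p = 0.00177) and -0.12 with IFNγ (adjusted p = 0.1). Gins4 was called lower with IFNγ (-0.12, adjusted p = 0.0418), a call that ended under 14 of 20 alternatives and without any of 8 libraries (adjusted p between 0.0503 and 0.178). It held only without untreated NTC replicate 1 or 2, IFNγ-treated NTC replicate 1 or IFNγ-treated DKO replicate 2, of the libraries left out in turn. Gins2, which overlaps Gse1 on the opposite strand, differed by -0.02 and 0.25 (adjusted p = 0.906 and 0.0795), and without IFNγ-treated DKO replicate 3 the second value was 0.41 (adjusted p = 0.000716), and 0.34 with libraries at the same total (adjusted p = 0.0281). Gins3, at 10.7 to 13 TPM, differed by -0.07 and -0.01 (adjusted p = 0.505 and 0.929).

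Mcm10, an initiation factor that binds the MCM ring, was higher in DKO cells with IFNγ at 39.8, 37.6 and 37.3 TPM against 33.8, 31.7 and 37 TPM. These libraries did not overlap, although by a narrow margin, and the difference was 0.16 (adjusted p = 0.0439) against 0.13 in untreated cells (adjusted p = 0.105), where Mcm10 was at 0.18 with libraries at the same total (adjusted p = 0.0327). The Mcm10 call ended when any of 8 libraries was left out, which were untreated NTC replicate 1, IFNγ-treated NTC replicates 1 and 2, untreated DKO replicates 1, 2 and 3, and IFNγ-treated DKO replicates 1 and 2 (adjusted p between 0.0527 and 0.181).

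Of the polymerase genes, 3 of 6 were higher in DKO cells in each state (50%, against 17.0% of all tested genes untreated and 19.5% with IFNγ). Both measured subunits of polymerase α were among them in untreated cells. Pola2, the accessory subunit, stood at 18.6, 22.4 and 21.1 TPM in untreated NTC and 26.2, 25.1 and 27.3 TPM in untreated DKO libraries, and at 17.5, 18.8 and 20.4 TPM against 26.1, 27.6 and 27.2 TPM with IFNγ. No library overlapped between genotypes, with log2 differences of 0.33 (adjusted p = 0.00274) and 0.50 (adjusted p = 0.000115). Pola1, the catalytic subunit, rose from 29.4, 30.1 and 28.5 TPM to 37, 35.2 and 39.7 TPM without IFNγ. With IFNγ, it stood at 34.9, 32.7 and 32 TPM in NTC against 34.4, 34.9 and 39.5 TPM in DKO libraries. Pola1 libraries were thus apart only in untreated cells, where the difference was 0.33 (adjusted p = 0.00104), against 0.12 with IFNγ (adjusted p = 0.139). The treated Pola1 difference was 0.23 with the GC and length trend removed (adjusted p = 0.00652) and 0.20 with libraries at the same total (adjusted p = 0.0163).

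Pold2, a subunit of polymerase δ, stood at 45.3, 48.1 and 46.6 TPM in untreated NTC and 52.8, 52.4 and 52.9 TPM in untreated DKO libraries, and at 45.1, 42.5 and 39.6 TPM against 53.9, 55.3 and 49.2 TPM with IFNγ. Genotypes did not overlap, and the differences were 0.17 (adjusted p = 0.0269) and 0.31 (adjusted p = 0.000625). The untreated Pold2 call ended without untreated NTC replicate 1 or 3 or any untreated DKO replicate (adjusted p between 0.0583 and 0.0915).

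Pold1, the catalytic subunit of polymerase δ, was at 40.4, 43.8 and 42 TPM in untreated NTC and 43.9, 36.5 and 38.4 TPM in untreated DKO libraries (-0.09, adjusted p = 0.459, and -0.12, adjusted p = 0.0421 with the GC and length trend removed). With IFNγ it was at 35.6, 33.1 and 30.9 TPM in NTC against 40.7, 45.6 and 35.4 TPM in DKO libraries. The lowest treated DKO library lay within the NTC range, and the difference was 0.28 (adjusted p = 0.0213). This Pold1 call ended without IFNγ-treated NTC replicate 2 or 3 or IFNγ-treated DKO replicate 1 or 2 (adjusted p between 0.0516 and 0.0988), and the value dropped to 0.05 with the GC and length trend removed (adjusted p = 0.403). Pold3, another subunit of polymerase δ, and Pole, the catalytic subunit of polymerase ε, differed by between 0.00 and 0.10 (adjusted p between 0.11 and 0.996). With libraries at the same total, Pole was higher in IFNγ-treated DKO cells (0.18, adjusted p = 0.00758).

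At the clamp and its loader, limma called 0 of 6 genes higher in either state, against 17.0% of all tested genes untreated and 19.5% with IFNγ. In DKO cells, 1 of 6 (16.7%, against 19.4% of all tested genes) was lower untreated and 3 of 6 (50%, against 23.9%) with IFNγ. With libraries at the same total, the untreated Rfc4 difference was -0.13 (adjusted p = 0.108), Rfc5 was called higher (0.14, adjusted p = 0.0207), and the Pcna and Rfc3 calls with IFNγ ended, as they also did with the GC and length trend removed. At an unadjusted p under 0.05, 1 of 6 genes passed in untreated cells, against 5271 of all 11663 tested genes. With IFNγ, 3 of 6 passed, against 5918 of 11663. Rfc4 stood at 79.8, 78.8 and 78.5 TPM in untreated NTC and 64.4, 71.3 and 73.4 TPM in untreated DKO libraries, and at 93, 93.9 and 96.4 TPM against 79.5, 68.2 and 82.8 TPM with IFNγ. DKO libraries were below NTC libraries in both states, with log2 differences of -0.18 (adjusted p = 0.0452) and -0.30 (adjusted p = 0.00251). The untreated Rfc4 call held without untreated DKO replicate 3 or IFNγ-treated DKO replicate 2 or 3, and ended without any of the other 9 libraries (adjusted p between 0.0539 and 0.185). The gene overlaps Eif4a2 on the opposite strand.

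Rfc3, in IFNγ-treated cells, stood at 55.7, 53.5 and 58.2 TPM in NTC against 49.9, 48.3 and 51.4 TPM in DKO libraries, whereas all untreated libraries held 46.8 to 50.4 TPM. The treated NTC libraries were thus the high ones, and the treated genotypes differed by -0.16 (adjusted p = 0.0137). This Rfc3 difference shrank to -0.07 when libraries were scaled to the same total (adjusted p = 0.2), to -0.03 with the GC and length trend removed (adjusted p = 0.553), and its call ended without IFNγ-treated NTC replicate 3 (adjusted p = 0.0625).

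Pcna, the most abundant member, was measured at 421, 488 and 484 TPM in untreated NTC and 422, 436 and 438 TPM in untreated DKO libraries, and at 493, 500 and 489 TPM against 462, 416 and 456 TPM with IFNγ. Untreated libraries overlapped and treated libraries did not. The differences were -0.10 (adjusted p = 0.172) and -0.15 (adjusted p = 0.0381), and without untreated NTC replicate 1, which was low, the untreated Pcna difference was -0.17 (adjusted p = 0.0142). The call with IFNγ ended without any of the IFNγ-treated NTC replicates, untreated DKO replicate 3 or IFNγ-treated DKO replicate 2 (adjusted p between 0.05 and 0.15), and was at -0.07 with libraries scaled to the same total (adjusted p = 0.349). Rfc1, Rfc2 and Rfc5 differed by -0.05 to 0.09 in the 2 states, and Rfc2 and Rfc5 overlap Lat2 and Wsb2 on the opposite strand.

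RPA, the trimer that binds single-stranded DNA, showed unequal changes. Rpa2 stood at 38.2, 41.9 and 38.1 TPM in untreated NTC and 48.2, 45.7 and 45.9 TPM in untreated DKO libraries, without overlap (0.24, adjusted p = 0.00914). With IFNγ, 42.8, 36.6 and 38.4 TPM in NTC overlapped with 44.8, 46 and 41.7 TPM in DKO libraries (0.17, adjusted p = 0.0439), and 8 of 12 libraries ended this Rpa2 call when left out (adjusted p between 0.0503 and 0.175). The 4 libraries without which it held were untreated NTC replicates 1 and 2, IFNγ-treated NTC replicate 1 and IFNγ-treated DKO replicate 3.

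Rpa1, the largest RPA subunit, was lower with IFNγ at 163, 157 and 149 TPM in DKO against 175, 170 and 170 TPM in NTC libraries. Those groups did not overlap, and the difference was -0.14 (adjusted p = 0.02), against -0.10 in untreated cells (adjusted p = 0.0756), where Rpa1 passed the threshold without untreated NTC replicate 1 (adjusted p = 0.0307) or IFNγ-treated DKO replicate 3 (adjusted p = 0.0485). The Rpa1 call ended without IFNγ-treated NTC replicate 1 or IFNγ-treated DKO replicate 3 (adjusted p of 0.0609 and 0.0678) and with libraries scaled to the same total (-0.05, adjusted p = 0.396). It also ended with only the libraries of the comparison (adjusted p = 0.0542). Rpa3, the small subunit, ranged over 97.4 to 139 TPM, with overlapping groups in both states. It was called lower with IFNγ (-0.21, adjusted p = 0.0477), a Rpa3 call that ended under 17 of 20 alternatives and turned to 0.04 with the GC and length trend removed (adjusted p = 0.567). It held only without IFNγ-treated NTC replicate 1 or IFNγ-treated DKO replicate 1 or 3 and ended without any of the other 9 libraries (adjusted p between 0.0548 and 0.214).

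Of the genes of lagging-strand maturation, limma called 0 of 2 in each state, against 4247 of 11663 tested genes untreated and 5053 with IFNγ. In each state, 1 of 2 had an unadjusted p under 0.05, against 5271 and 5918 of all tested genes. Fen1, the flap endonuclease that trims Okazaki fragments, stood at 46.4 to 51 TPM in untreated NTC and 51.6 to 53.6 TPM in untreated DKO libraries, with differences of 0.13 (adjusted p = 0.0655) and 0.11 with IFNγ (adjusted p = 0.0875). Scaling to the same total brought both Fen1 values past the threshold (adjusted p of 0.0211 and 0.00992). The untreated Fen1 value also passed it without untreated NTC replicate 2 (adjusted p = 0.0351), IFNγ-treated DKO replicate 2 (adjusted p = 0.0459) or IFNγ-treated DKO replicate 3 (adjusted p = 0.0489). With the GC and length trend removed, it was 0.12 (adjusted p = 0.0413, and 0.0384 with the replicate block). The treated Fen1 value also passed without IFNγ-treated DKO replicate 3 (adjusted p = 0.0369). Lig1, the ligase that seals these fragments, ranged from 108 to 137 TPM and differed by 0.05 and 0.00 (adjusted p = 0.732 and 1). Fen1 and Lig1 overlap 1810006K21Rik and 6330408A02Rik on the opposite strand.

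All 3 genes of nucleotide supply were higher in untreated DKO cells (100%, against 17.0% of all tested genes). With IFNγ, 1 of 3 was higher (33.3%, against 19.5%). Rrm2, the cell cycle-regulated subunit of ribonucleotide reductase, stood at 255, 287 and 268 TPM in untreated NTC and 327, 315 and 339 TPM in untreated DKO libraries. Under IFNγ it was at 280, 277 and 278 TPM against 335, 316 and 342 TPM. All DKO libraries exceeded all NTC libraries, by 0.28 (adjusted p = 0.000493) and 0.25 (adjusted p = 0.000883). Rrm1, the large subunit, was at 200, 212 and 209 TPM in untreated NTC and 225, 230 and 239 TPM in untreated DKO libraries (0.16, adjusted p = 0.0156), a call that ended without untreated NTC replicate 1 or untreated DKO replicate 3 (adjusted p of 0.0655 and 0.07). The treated groups of Rrm1 overlapped (0.03, adjusted p = 0.647), and this value passed the threshold with the GC and length trend removed (0.11, adjusted p = 0.0185) and with libraries at the same total (0.12, adjusted p = 0.0477). The ratio of Rrm1 to Rrm2 was 0.739 to 0.837 in NTC and 0.687 to 0.732 in DKO libraries.

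Tyms, thymidylate synthase, stood at 82.7, 87.9 and 86.2 TPM in untreated NTC and 97.2, 102 and 98.8 TPM in untreated DKO libraries. With IFNγ it was at 94.4, 96.5 and 97.1 TPM in NTC against 106, 96.9 and 99.3 TPM in DKO libraries. The untreated NTC libraries were the low group, and the genotype differences were 0.21 untreated (adjusted p = 0.00197) and 0.07 with IFNγ (adjusted p = 0.215). The treated Tyms difference was 0.12 with the GC and length trend removed (adjusted p = 0.0275) and 0.16 with libraries at the same total (adjusted p = 0.0105). Under these settings, all 3 genes of nucleotide supply were called higher in both states. Of all tested genes, 20.0% untreated and 19.7% with IFNγ were called higher with the trend removed, and 22.7% and 28.1% at the same total.

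The maintenance methylation pair, in which Uhrf1 recognizes hemimethylated DNA behind the fork and recruits the methyltransferase Dnmt1, was higher in both states. Uhrf1 stood at 126, 146 and 140 TPM in untreated NTC and 164, 164 and 168 TPM in untreated DKO libraries, and at 128, 117 and 128 TPM against 169, 178 and 163 TPM with IFNγ. Dnmt1 stood at 84.1, 90.6 and 86.2 TPM in untreated NTC and 104, 101 and 105 TPM in untreated DKO libraries, and at 83.6, 79.3 and 84.7 TPM against 103, 111 and 101 TPM with IFNγ. Libraries of the genotypes did not overlap for either gene. The log2 differences were 0.27 and 0.44 for Uhrf1 (adjusted p = 0.00204 and 4.22e-05) and 0.25 and 0.34 for Dnmt1 (adjusted p = 0.00104 and 7.45e-05).

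Slbp, which binds the stem-loop of replication-dependent histone mRNAs, rose in untreated DKO cells from 56.4, 61 and 58.7 TPM to 64.8, 69.7 and 73.9 TPM (0.24, adjusted p = 0.0144). With IFNγ the groups overlapped, at 61, 68 and 63.2 TPM in NTC against 69.8, 61.9 and 73.8 TPM in DKO libraries (0.09, adjusted p = 0.288). That Slbp value was 0.20 with the GC and length trend removed (adjusted p = 0.00888) and 0.18 with libraries at the same total (adjusted p = 0.0381). The untreated Slbp call ended without untreated NTC replicate 1 or untreated DKO replicate 3 (adjusted p of 0.0574 and 0.0691).

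Brca1, which acts in homologous recombination and protects stalled forks and lies at chr11:101488764-101551955 on the minus strand (GRCm38), held the largest decrease. It stood at 59.4, 52.4 and 54 TPM in untreated NTC and 32.3, 34.3 and 34.7 TPM in untreated DKO libraries. With IFNγ, it stood at 67.8, 75.1 and 72.9 TPM in NTC against 40.9, 38.6 and 42 TPM in DKO libraries. The 4 groups did not overlap, with untreated DKO lowest and IFNγ-treated NTC highest. The log2 difference between genotypes was -0.69 untreated (SE 0.0583, adjusted p = 1.48e-06), by which TPM + 1 decreased by 38.1%, and -0.81 with IFNγ (SE 0.0583, adjusted p = 3.1e-07), by which it decreased by 43.1%.

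**Figure D4:**
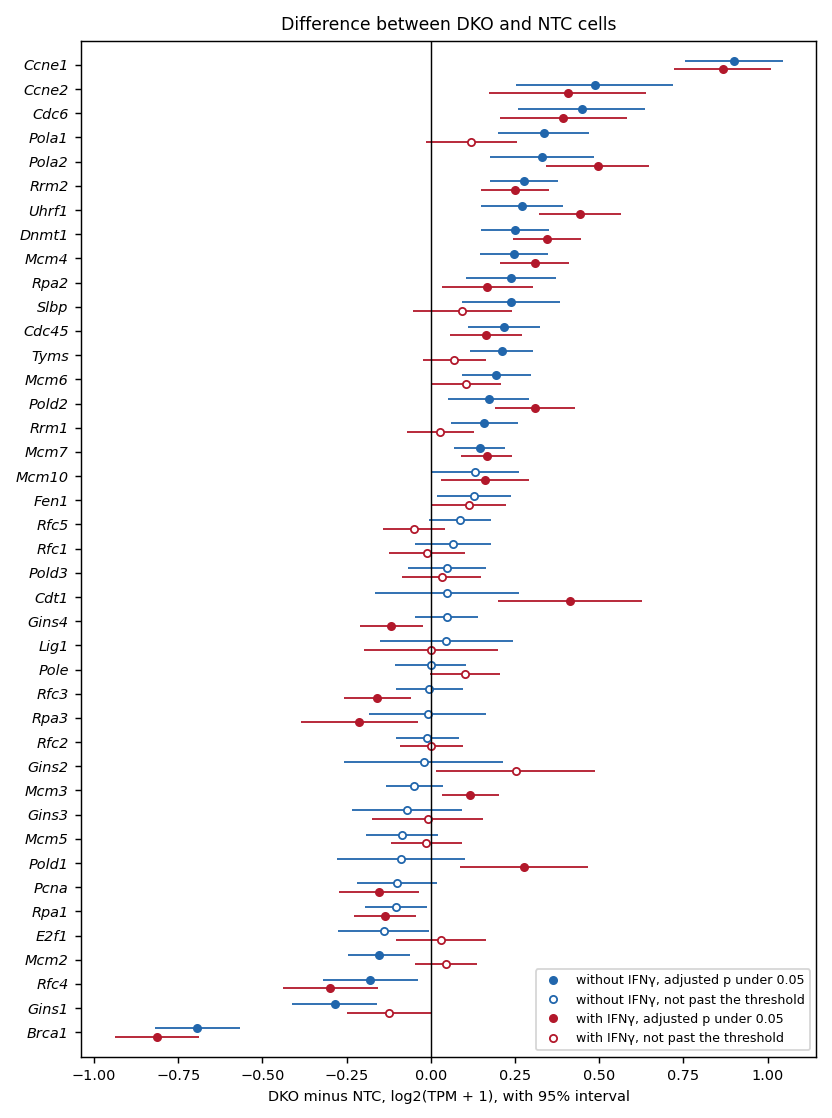
Difference between DKO and NTC cells in log2(TPM + 1) for the 41 members, untreated (blue) and with IFNγ (red), with 95% intervals from limma and filled points for adjusted p under 0.05. Ccne1 lies at 0.90 and 0.87 at the top and Brca1 at -0.69 and -0.81 at the bottom; the other members lie between -0.30 and 0.50.

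The calls differed in how far they depended on single choices. Of the 21 untreated calls, 16 held under all alternatives tried, the exceptions being Mcm2, Rfc4, Pold2, Rrm1 and Slbp. With IFNγ, 13 of 23 held under all alternatives, namely Ccne1, Ccne2, Cdc6, Cdt1, Mcm4, Mcm7, Pola2, Pold2, Rrm2, Uhrf1, Dnmt1, Brca1 and Rfc4.

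The response to IFNγ was small in this gene set. In NTC cells, 4 of 41 members were higher and 3 lower after treatment, where 7.31% of all tested genes were called higher and 4.78% lower, so that the shares of members (9.76% and 7.32%) were near the background. The median was 0.0395 over the members and 0.0186 over all tested genes. The share of higher genes among all calls was 60.5%, 45.1% after scaling to the same total, and 48.8% after median-ratio scaling. The members that rose were Brca1 (0.38, adjusted p = 0.00227), Rfc4 (0.25, adjusted p = 0.0271), Rfc3 (0.19, adjusted p = 0.0224) and Tyms (0.16, adjusted p = 0.0301). Those that fell were Cdt1 (-0.37, adjusted p = 0.0317), Pold1 (-0.34, adjusted p = 0.0292) and Mcm2 (-0.14, adjusted p = 0.0484). The values by library are given above, and treated and untreated NTC libraries did not overlap for these genes. Such a gap was present for 11 members in the higher and 6 in the lower direction, against 21.8% and 14.7% of all tested genes.

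Of these calls only that of Brca1 held under all alternatives. With the GC and length trend removed, Brca1 remained as the single called member, and Pold1, a gene of 61.01% GC in its longest transcript, moved to -0.08 (adjusted p = 0.314), whereas Rfc3, at 43.18% GC, moved to 0.08 (adjusted p = 0.27). Leaving out untreated NTC replicate 2 or 3 or IFNγ-treated NTC replicate 3 also left Brca1 alone. The calls of Cdt1, Rfc4 and Tyms ended in addition without untreated NTC replicate 1 or IFNγ-treated NTC replicate 2, and that of Pold1 without the latter (adjusted p between 0.0511 and 0.122 over these libraries). The Mcm2 call ended without any of 9 libraries, of all but IFNγ-treated NTC replicate 1 and IFNγ-treated DKO replicates 2 and 3 (adjusted p between 0.0541 and 0.16). In all, 1 to 12 members were called with 1 library left out, 4 of them without untreated NTC replicate 1, 2 without IFNγ-treated NTC replicate 2 and 12 without IFNγ-treated DKO replicate 3, which added Mcm6, Rrm1, Rfc5, Pola1 and Gins2 (adjusted p between 0.0149 and 0.0483). Rfc1, Rfc5 and Rpa3 were added without IFNγ-treated NTC replicate 1 (adjusted p between 0.0382 and 0.0499), Mcm6, Rrm1 and Rpa3 without IFNγ-treated DKO replicate 2 (adjusted p between 0.0335 and 0.0486), and Uhrf1 without untreated NTC replicate 1 (adjusted p = 0.0401).

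In DKO cells, limma called 0 of 41 members higher and 0 lower after IFNγ, where 0.677% of all tested genes were called higher and 0.103% lower. An unadjusted p under 0.05 was found for 2 of 41 members, against 1119 of all 11663 tested genes. The median was 0.0308 over the members and 0.0081 over all tested genes. Brca1 had the smallest adjusted p (0.0753), with a log2 difference of 0.26 and every treated DKO library above every untreated one, as for 9.46% of all tested genes. It passed the threshold with libraries scaled to the same total (0.26, adjusted p = 0.039), with the GC and length trend removed (0.22, adjusted p = 0.0457) and without untreated NTC replicate 1 (0.26, adjusted p = 0.0478).

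The difference between the IFNγ responses of the genotypes was tested as an interaction. No member was called in either direction by limma, where 0.00857% of all tested genes were called higher and 0.0257% lower. At an unadjusted p under 0.05, 10 of 41 members passed, against 1340 of all 11663 tested genes. The smallest adjusted p among members was 0.364, for Mcm2 with an interaction of 0.20. Pold1 and Cdt1, which fell in NTC cells and stood at 0.03 and -0.01 in DKO cells, both had an interaction of 0.37 (adjusted p = 0.382 and 0.409). Pola1 had one of -0.21 (adjusted p = 0.417) and Brca1 one of -0.12 (adjusted p = 0.565). The responses of these genes are therefore not shown to differ between genotypes.

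**Figure D5:**
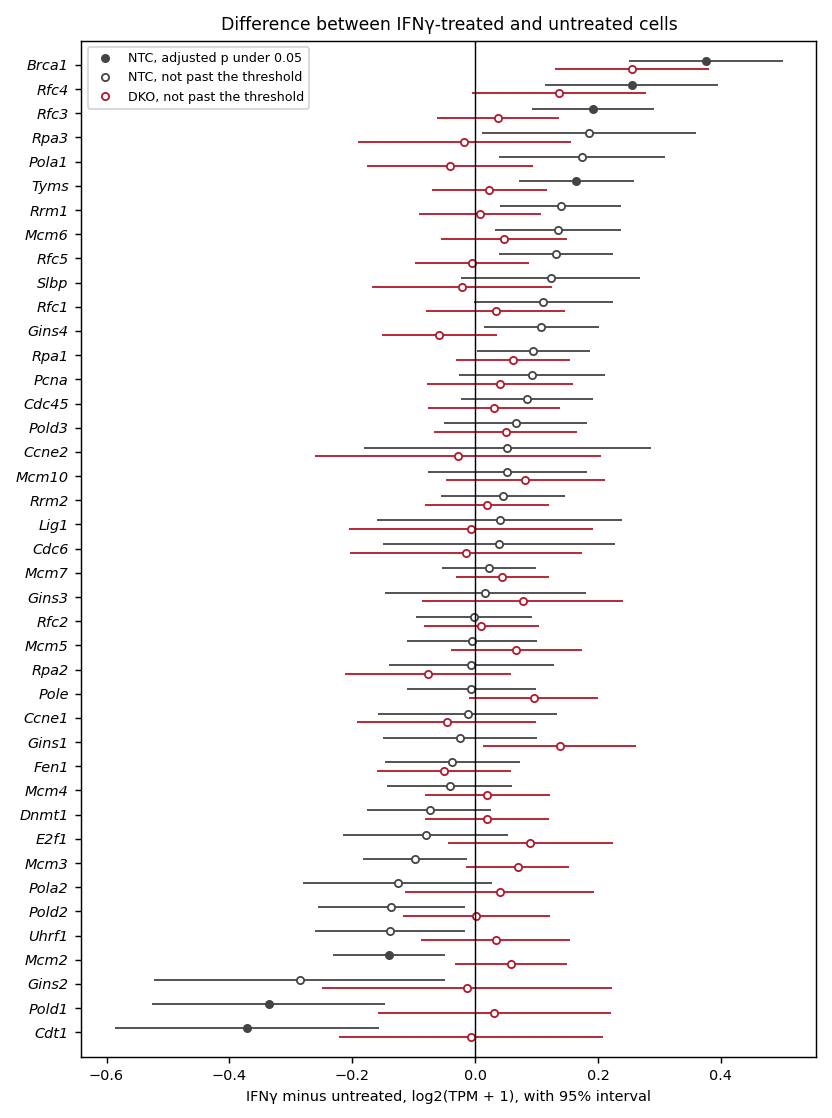
Difference between IFNγ-treated and untreated cells in log2(TPM + 1) for the 41 members, in NTC (grey) and DKO cells (red), with 95% intervals from limma and filled points for adjusted p under 0.05. Brca1 is at the top with 0.38 in NTC and 0.26 in DKO cells, and Cdt1 at the bottom with -0.37 and -0.01.

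Genes around the members were examined through 3 further lists. Of 37 tested genes of replication outside the members, 13 were higher and 4 lower in DKO cells without IFNγ, and 10 higher and 9 lower with IFNγ, with medians of 0.0471 and 0.0212. These are 35.1% and 10.8% without IFNγ, where 17.0% and 19.4% of all tested genes were called, and 27% and 24.3% with it, where 19.5% and 23.9% were. Orc1, an origin recognition subunit, stood at 7.89, 8.2 and 9.23 TPM in untreated NTC and 12.5, 12.9 and 14.9 TPM in untreated DKO libraries (0.61, adjusted p = 4.89e-05), and was 0.48 higher with IFNγ (adjusted p = 0.000291). Dctpp1, which removes aberrant dCTP, was higher by 0.52 and 0.38 (adjusted p = 2.31e-05 and 0.000244). The lower genes included the origin recognition subunit Orc3 (-0.36 and -0.49, adjusted p = 0.00016 and 9.92e-06), the helicase Recql4 (-0.59 untreated, adjusted p = 0.000178) and the polymerase ε subunit Pole4 (-0.50 with IFNγ, adjusted p = 3.99e-06). Origin recognition subunits thus moved in opposite directions.

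Of 24 tested regulators of S-phase entry, 11 were higher and 7 lower in DKO cells without IFNγ (45.8% and 29.2%, against 17.0% and 19.4% of all tested genes), and 10 higher and 6 lower with IFNγ (41.7% and 25%, against 19.5% and 23.9%). Cdkn1a, encoding the CDK inhibitor p21, stood at 72.8, 95.5 and 89.8 TPM in untreated NTC and 260, 218 and 211 TPM in untreated DKO libraries, and at 70.1, 61.1 and 59.1 TPM against 211, 234 and 189 TPM with IFNγ. DKO libraries were far above NTC libraries, with log2 differences of 1.41 (adjusted p = 6.47e-07) and 1.72 (adjusted p = 1.03e-07). Ccnd1, encoding cyclin D1, was higher by 0.59 (adjusted p = 0.000129) and 0.93 (adjusted p = 2.4e-06).

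Cdk2, the kinase partner of cyclin E, was lower, at 494, 500 and 503 TPM in untreated NTC and 371, 356 and 370 TPM in untreated DKO libraries (-0.45, adjusted p = 5.91e-07). Cdkn2c, encoding the CDK inhibitor p18, was lower by -0.46 and -0.64 (adjusted p = 0.00104 and 7.47e-05), and the retinoblastoma gene Rb1 was lower by -0.49 with IFNγ (adjusted p = 0.000589). Genes with opposed actions on S-phase entry, the inhibitor Cdkn1a and the cyclins Ccne1 and Ccnd1, were thus all higher in DKO cells. In the IFNγ response of NTC cells, 1 regulator was higher and 2 lower (4.17% and 8.33%, against 7.31% and 4.78% of all tested genes). These were the Rb family gene Rbl1 (0.19, adjusted p = 0.0431), Cdkn1a (-0.43, adjusted p = 0.0261) and Ccnd1 (-0.37, adjusted p = 0.0174). The last 2 calls ended without untreated NTC replicate 2 or 3 or IFNγ-treated NTC replicate 2 or 3 (adjusted p between 0.0545 and 0.102), and that of Rbl1 ended without any of 10 libraries, of all but IFNγ-treated DKO replicates 2 and 3 (adjusted p between 0.0531 and 0.12).

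Of 24 tested genes of repair coupled to replication, 4 were higher and 3 lower in DKO cells without IFNγ (16.7% and 12.5%, against 17.0% and 19.4% of all tested genes), and 7 higher and 4 lower with IFNγ (29.2% and 16.7%, against 19.5% and 23.9%). The mismatch repair gene Msh6 was higher by 0.41 and 0.42 (adjusted p = 0.000155 and 0.000106) and the exonuclease Exo1 by 0.37 and 0.28 (adjusted p = 0.000374 and 0.00226). Rad17, which loads the checkpoint clamp, was lower by -0.33 and -0.38 (adjusted p = 0.000544 and 0.000141). The Fanconi anemia gene Fanca was lower by -0.28 in untreated cells (adjusted p = 0.0209). The Fanca call ended without untreated NTC replicate 2 or 3 or untreated DKO replicate 1 (adjusted p between 0.0537 and 0.0907). In the IFNγ response of NTC cells, limma called 0 of the 37 replication and 0 of the 24 repair genes. Over all tested genes, 7.31% were called higher and 4.78% lower. Of the 2 lists, 15 of 37 and 2 of 24 genes had an unadjusted p under 0.05, against 3707 of all 11663 tested genes. In the IFNγ response of DKO cells, limma called 0 genes of the 3 lists, against 0.677% higher and 0.103% lower of all tested genes. There, 1 of 37 replication genes, 2 of 24 regulators and 1 of 24 repair genes had an unadjusted p under 0.05. Of all 11663 tested genes, 1119 did.

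Lastly, members with and without an E2F-like word in the promoter window were set side by side. In untreated cells, 6 of the 14 members with a match were higher in DKO cells and 0 lower (median 0.0482). Of the 20 without a match, 9 were higher and 3 lower (median 0.1293). The shares over all tested genes were 17.0% higher and 19.4% lower. With IFNγ, 7 of the 14 with a match were higher and 1 lower (median 0.1188), against 7 of the 20 without higher and 5 lower (median 0.0569). The shares over all tested genes were then 19.5% and 23.9%. Of the 7 members with no promoter window, 2 were higher and 1 lower in each state. The order of the 2 medians was thus opposite in the 2 states, and the split carries no test.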

How the data were processed

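Poly(A)-selected, unstranded RNA-seq libraries were made by the authors from 12 samples, 3 in each of 4 groups. The deposited values are TPM per gene, although the table is called counts; per the labels, RSEM 1.2.4, Bowtie and TopHat were used with build mm10 among others. A scaling between libraries is not given in the sources used here, and depth is unknown. The count model that was planned for counts could not be used, and limma 3.58.1 (R 4.3.3) was run on log2(TPM + 1) of genes reaching 1 TPM in 3 or more libraries. The model had 1 mean per group and a mean-dependent prior variance. Fold changes of genes near 1 TPM are understated on this scale. The 5 comparisons were IFNγ against untreated in NTC and in DKO, DKO against NTC untreated and with IFNγ, and the interaction. A two-sided Benjamini-Hochberg adjusted p under 0.05 was the threshold. The fit was tested on simulated data.

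The members, further lists and tests were chosen with earlier results of these data known. All members were described by name; of the further lists, up to 2 genes per list, comparison and direction with the largest log2 difference among called genes were named, except 1 gene that is not reported here. Alternatives were a pseudocount of 0.1, a replicate block, median-ratio scaling, scaling to the same total, removal of a GC and length trend with and without the block (GENCODE M21, 99.1% of tested genes), no filter, only the libraries of the comparison, and each library left out in turn. Promoters came from RefSeq sequence of GRCm38.p6. Splicing was not analysed here.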

Additional observations from a re-analysis of the deposited data

How the results depend on the processing

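Among the values of single genes, 5584 kept their side of the threshold, and 237 of these, all uncalled, changed sign. A further 191 lost and 63 gained a call. Another 3 turned in sign with a call before or after (Rpa3 under 2 settings, and E2f1, which was not called before). Called members numbered 1 to 12 with a library left out for IFNγ in NTC, 0 to 1 for IFNγ in DKO (1 without untreated NTC replicate 1), 18 to 24 for DKO against NTC untreated and 16 to 23 with IFNγ, and all called genes 319 to 2020, 68 to 109, 3430 to 4477, 4239 to 5110 and, for the interaction, 0 to 7. With the GC and length trend removed, IFNγ in NTC called 1 member and 598 genes (438 genes and 1 member with the replicate block as well), IFNγ in DKO called 1 member, Rpa3 with IFNγ turned to 0.0412 (adjusted p = 0.567, and 0.596 with the block) and E2f1 to -0.12 (adjusted p = 0.0447). Scaling to the same total gave 1 member for IFNγ in DKO and a member median of 0.18 for DKO against NTC with IFNγ. Without a filter, IFNγ in NTC called 4 members and 897 genes and the interaction 10 genes. Replicate numbers were not stated to pair samples, and deviations of the 18 same-numbered pairs correlated between -0.179 and 0.182, with 4 over 0.1. With the replicate block, 5 members were called for IFNγ in NTC, 21 and 20 for DKO against NTC untreated and with IFNγ, and 2 genes for the interaction. TPM keep no read depth, so precision rests on 3 libraries per group, and exact permutation of 3 against 3 libraries cannot go below p = 0.1.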
